A study of Mus musculus with 8 samples.

Results

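Disease-associated microglia are a state that the resident macrophages of the brain take up around plaques, dying cells and damaged myelin, in which genes of phagocytosis, lysosomes and lipid handling rise while genes of resting microglia fall. The 10 genes described here belong to that state: Clec7a, Trem2, Tyrobp, Axl and Itgax, which encode surface receptors and an adaptor, Spp1, Apoe and Lpl, which encode secreted proteins, and Cst7 and Gpnmb, which encode proteins of lysosomes. They were selected on the counts of Clec7a and Spp1, which were lower in SAP97-cKO hippocampus, and the comparison asked whether the other 8 followed. They are 10 of the 25834 genes in the table, and 8 of the 10 held enough reads for the test across 16251 genes. For Clec7a and Spp1 the genotype difference is therefore a description, and it is given without a test.

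One library was made from hippocampal RNA of each of 8 male mice, of which 4 were controls and 4 were SAP97-cKO. SAP97, a scaffold protein of synapses, is encoded by Dlg1, and the SAP97-cKO mice were Nestin-cre+/-; SAP97fl/fl, from a Nestin-cre line on a C57Bl/6 background. The controls were littermates whose genotype is listed as Nes-cre+/-, SAP97fl/fl and wild-type, and neither the control genotype of each library nor the age of these mice was given in the sources used here. The Nestin promoter drives Cre in neural progenitors and so in the neurons, astrocytes and oligodendrocytes that come from them, whereas microglia derive from yolk sac progenitors. Because whole hippocampus was sequenced, fewer cells of a type and less RNA per cell cannot be told apart.

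Each library held between 37388177 and 37426572 counts. Counts below are normalized by TMM, a scaling that sets the bulk of genes level between libraries, with factors of 0.964 to 1.03. Dlg1 lay between 3982 and 4690 normalized counts in control libraries and between 2008 and 3064 in SAP97-cKO libraries, with no overlap. These counts cover the whole gene. The paper reports a much larger fall of reads on a single exon, and less SAP97 protein in hippocampus. Over all 16251 genes the median log2 fold change (SAP97-cKO over control) was -0.01, and 0.295% of genes passed the study's threshold, an adjusted p under 0.25, in the quasi-likelihood test of edgeR, where p was adjusted by the Benjamini-Hochberg method. The genotypes did not overlap for 6.25% of genes, and SAP97-cKO was the lower in 3.47%.

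Clec7a and Spp1, chosen for this difference, were on average at 25.5% and 26.3% of their control levels in SAP97-cKO hippocampus. Of the other 8 genes, 6 were tested and 0 were called, beside 0.295% of all genes tested. Trem2, Tyrobp, Apoe and Axl lay within 10% of their control means, Gpnmb and Lpl were on average higher in SAP97-cKO, and Itgax and Cst7 held too few reads for the test. Because the promoters of Clec7a and Spp1 precede the pair of transcripts that differed, the 250 bases before a RefSeq start site of each are shown. The capitals mark the letters GAGGAAGT in Spp1 and GAGGAA in Clec7a, a binding motif of PU.1, the transcription factor of the macrophage lineage, and its shorter core. The windows are from GRCm38.p6 and are written on the strand of the gene, for Spp1 chr5:104434861-104435110 on the plus strand and for Clec7a chr6:129472780-129473029 on the minus strand.
Spp1: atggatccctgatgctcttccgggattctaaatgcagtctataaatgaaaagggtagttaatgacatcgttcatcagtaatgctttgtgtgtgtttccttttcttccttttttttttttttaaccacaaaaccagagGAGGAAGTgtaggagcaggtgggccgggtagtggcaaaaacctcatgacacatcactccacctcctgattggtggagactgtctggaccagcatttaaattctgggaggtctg
Clec7a: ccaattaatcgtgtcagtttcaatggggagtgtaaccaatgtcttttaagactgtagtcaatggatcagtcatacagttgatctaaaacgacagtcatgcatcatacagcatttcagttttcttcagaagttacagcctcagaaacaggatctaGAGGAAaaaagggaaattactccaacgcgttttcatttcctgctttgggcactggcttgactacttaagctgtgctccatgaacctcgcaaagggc
GAGGAAGT began 113 bases before the Spp1 start site, and 2.44% of 32851 windows of this length held it on either strand. GAGGAA, which lies inside GAGGAAGT, began 96 bases before the Clec7a start site and stood in 23.3% of windows. Of the 10 genes, 8 had an entry, with 12 windows in all. GAGGAA also stood in windows of Apoe, Axl and Trem2, whose counts are given below. The AP-1 letters TGANTCA, present in 6.75% of windows, stood in those of Itgax and Trem2, and the E-box CACGTG, present in 6.02%, in none of the 12. The other Spp1 window, chr5:104435942-104436191, is not shown and held neither GAGGAA nor the AP-1 or E-box letters. These are matches of letters in a fixed window, searched on both strands.

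Clec7a encodes Dectin-1, a C-type lectin receptor that signals through the kinase Syk. It lies on chr6:129461591-129472779 of GRCm38, on the minus strand, and GENCODE annotates it as a polymorphic pseudogene. The normalized counts were 23.0, 34.9, 32.04 and 37.8 in control replicates 1 to 4, and 10.2, 3.98, 10.1 and 8.30 in SAP97-cKO replicates 1 to 4. The genotypes did not overlap, and the control counts were the more even in proportion. The means were 31.9 ± 6.41 and 8.15 ± 2.91 (SD, n = 4 each), a log2 fold change of -1.96 with a standard error (SE) of 0.33. The difference rests on 130 reads in all control libraries together and 32 in all SAP97-cKO libraries, so that counting error is a large part of each single value.

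Trem2, a receptor for lipids and lipoproteins at the microglial surface, and Tyrobp, the adaptor DAP12 through which it signals, did not pass the test. The Trem2 gene (chr17:48346401-48354147, plus strand) had 416, 414, 385 and 577 normalized counts in the control libraries and 554, 429.9, 428 and 448 in the SAP97-cKO libraries. One library of each genotype, control replicate 4 and SAP97-cKO replicate 1, stood above the other 6, and the remaining libraries of both genotypes intermingled. The means were 448 ± 87.2 and 465 ± 59.8 (SD, n = 4 each), a log2 fold change of 0.05 (SE 0.14, edgeR adjusted p = 0.898). The 95% interval of the fold reached from 0.832 to 1.29.

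Tyrobp (chr7:30413760-30417585, plus strand) had 429, 450.3, 438 and 652 normalized counts in control libraries and 499.9, 468, 385 and 429 in SAP97-cKO libraries. Control replicate 4 was again the highest, and the other 7 libraries overlapped. The log2 fold change was -0.15 (SE 0.15, edgeR adjusted p = 0.690), with a 95% interval of the fold from 0.720 to 1.14. Without control replicate 4 it was 0.02.

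Axl, a receptor tyrosine kinase that recognizes Gas6 bound to dying cells, lies on chr7:25757273-25788705 on the minus strand. Its normalized counts were 1889, 2132, 2042 and 2428 in control libraries and 2318, 1753, 2058 and 1978 in SAP97-cKO libraries. The genotypes overlapped over most of their range. The log2 fold change was -0.07 (SE 0.10, edgeR adjusted p = 0.794), and the 95% interval of the fold was 0.818 to 1.11. Without control replicate 4 the log2 fold change was 0.0046.

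Itgax, which encodes the integrin subunit CD11c (chr7:128129547-128150657, plus strand), did not reach the minimum for the test. It held 4, 12, 5 and 9 reads in control libraries and 14, 9, 10 and 7 in SAP97-cKO libraries. The sums were 30 and 40 reads, a ratio of 1.33 whose exact 95% interval, covering counting error only, was 0.810 to 2.22. The order of the genotypes was opposite to that of Clec7a, but a difference was not detectable at this depth.

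**Figure D1:**
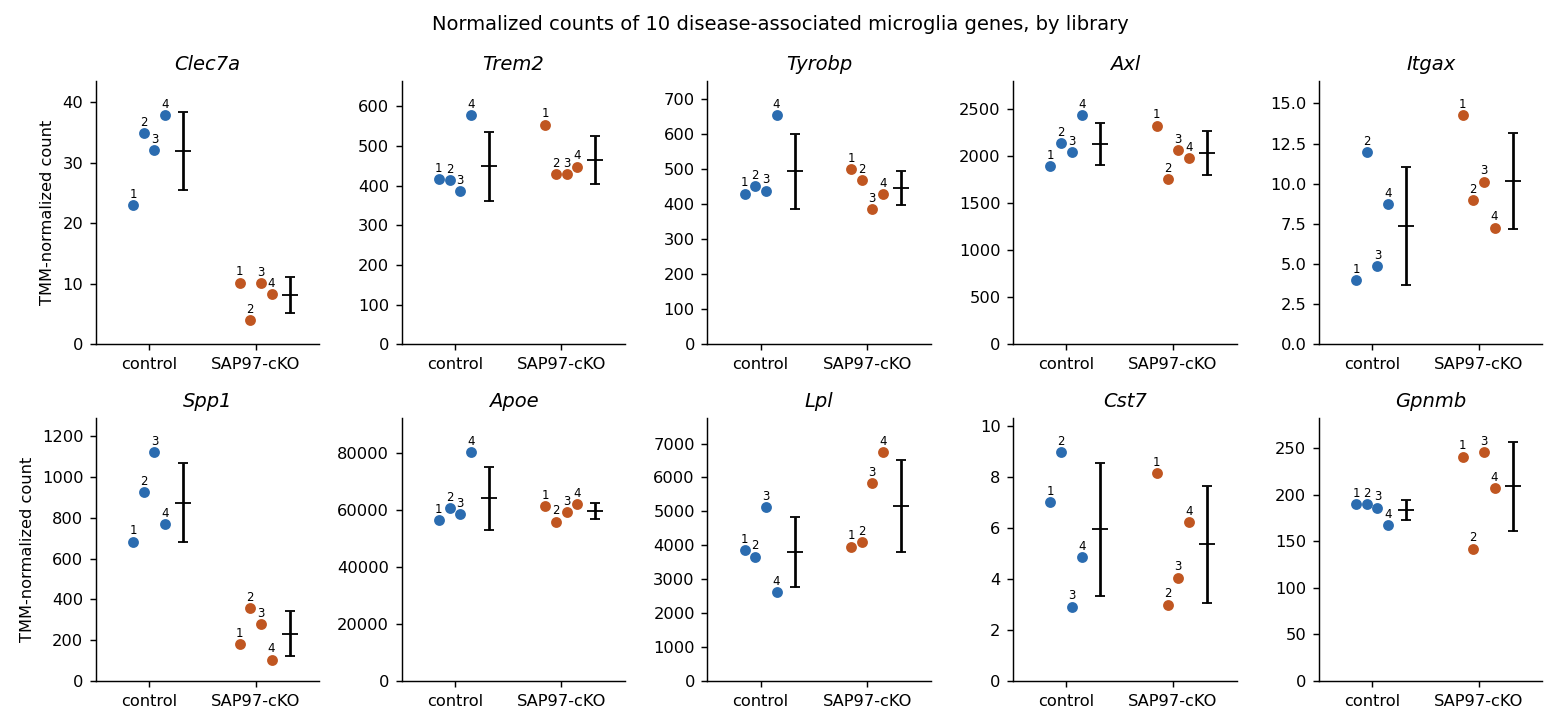
TMM-normalized counts of the 10 genes in each of 4 control and 4 SAP97-cKO libraries, 1 panel per gene with its own linear axis. Points are single mice. The genotypes do not overlap for Clec7a and Spp1, and they overlap for each of the other 8.

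Spp1 encodes osteopontin, a secreted phosphoprotein that binds integrins and CD44. The gene lies on chr5:104435118-104441050 on the plus strand. Its normalized counts were 684, 926, 1123 and 769.5 in control libraries and 182, 356, 279.6 and 105 in SAP97-cKO libraries. The genotypes did not overlap, and the gap between them was wider than the range within SAP97-cKO and narrower than the range within control. The means were 876 ± 193 and 231 ± 110 (SD, n = 4 each), a log2 fold change of -1.92 (SE 0.31). Spp1 rested on 3563 reads in control and 914 in SAP97-cKO libraries, so that its spread within a genotype, a coefficient of variation of 22.0% in control and 47.7% in SAP97-cKO, is far wider than counting error.

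Apoe, which encodes the main apolipoprotein of the brain, is expressed by astrocytes as well as by activated microglia, and its difference could not show the microglial share alone. It lies on chr7:19696109-19699188 on the minus strand. Control libraries had 56555, 60770.0, 58619.9 and 80393 normalized counts and SAP97-cKO libraries 61451, 55978, 59238 and 62188. Control replicate 4 stood above the rest, and the other 7 libraries lay between 55978 and 62188. The log2 fold change was -0.10 (SE 0.11, edgeR adjusted p = 0.717), and the 95% interval of the fold was 0.782 to 1.11. Without control replicate 4 the value was 0.03.

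Lpl encodes lipoprotein lipase, which frees fatty acids from triglyceride-rich lipoproteins and which neurons of the hippocampus also express. Its gene lies on chr8:68880491-68907448 on the plus strand. The normalized counts were 3851, 3665, 5133 and 2617 in control libraries and 3963, 4100.3, 5827 and 6750.0 in SAP97-cKO libraries. The mean was 135% of control, the opposite direction to Clec7a and Spp1, but control replicate 3 lay above both lower SAP97-cKO libraries. The log2 fold change was 0.44 (SE 0.22), with a 95% interval of the fold from 0.970 to 1.88, and the edgeR adjusted p was 0.449. With the level of meningeal fibroblast markers in the model, Lpl had -0.11 (SE 0.37), and with that of choroid plexus markers 0.46 (SE 0.25).

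Cst7 encodes cystatin F, an inhibitor of lysosomal cathepsins (chr2:150570415-150578944, plus strand), and was also below the minimum for the test. It held 7, 9, 3 and 5 reads in control libraries and 8, 3, 4 and 6 in SAP97-cKO libraries. The sums of 24 and 21 reads gave a ratio of 0.875 with an exact 95% interval, for counting error only, of 0.463 to 1.64. Both genotypes covered nearly the same range.

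Gpnmb encodes a transmembrane glycoprotein of lysosomes and melanosomes (chr6:49036546-49070929, plus strand). It had 190.1, 190.3, 186 and 168 normalized counts in control libraries and 241, 142, 246 and 208 in SAP97-cKO libraries. The SAP97-cKO libraries were spread on both sides of the controls, 3 above and 1 below all 4. The log2 fold change was 0.19 (SE 0.17, edgeR adjusted p = 0.650), with a 95% interval of the fold from 0.879 to 1.48.

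Of the 8 genes whose difference had not been used to choose them, 6 were tested and 0 passed in edgeR, beside 0.295% of all genes tested. The count was also 0 in limma-voom (0.308% of genes called) and in DESeq2 (6.36% of genes called). Without a filter on low counts, which brings in Itgax and Cst7, 0 of 8 passed beside 0.403% of 25834 genes. At an unadjusted p under 0.05, 0 of the 6 passed in edgeR or limma-voom and 1, Lpl, passed in DESeq2, in the direction of higher counts. At that level 4.73% of all genes were higher in edgeR and 5.64% in DESeq2. Lpl also passed it in edgeR without the filter, with the homeostatic microglia covariate, without control replicate 3 and without replicate 1 or 2 of SAP97-cKO, and in the last of these so did Gpnmb. The fitted fold change was below 0 for 3 and above 0 for 3, from -0.15 to 0.44, with a median log2 fold change of -0.0070 beside -0.012 for all genes.

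**Figure D2:**
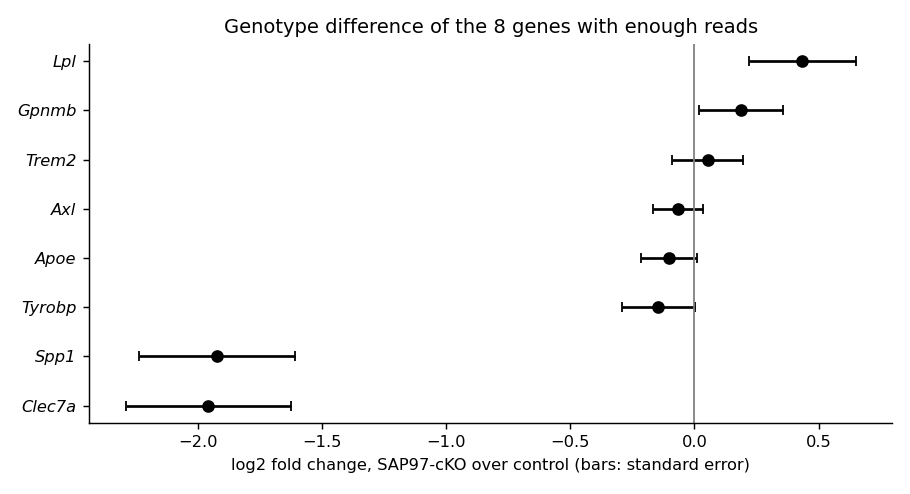
Log2 fold change, SAP97-cKO over control, of the 8 genes with enough reads for the test. Points are the edgeR estimates and bars 1 standard error, and the line marks 0. Clec7a and Spp1, which were chosen for their difference, lie near -2 and the other 6 between -0.15 and 0.44.

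Per kilobase of exon, the level of the 10 genes in control hippocampus spanned 801 CPM per kb (counts scaled to library size, over exonic length) for Apoe to 0.0411 for Itgax. Between them came Tyrobp at 19.7, Spp1 at 14.2, Axl at 11.3, Lpl at 9.74, Trem2 at 2.42, Gpnmb at 0.754, Clec7a at 0.324 and Cst7 at 0.161 CPM per kb. The control ranges of neighbours in this order overlapped for Tyrobp with Spp1, Spp1 with Axl, Axl with Lpl and Clec7a with Cst7, and not for the other pairs. In SAP97-cKO hippocampus Spp1 stood in the fifth place instead of the third, at 3.74 CPM per kb, and Clec7a in the ninth instead of the eighth, at 0.0826. There the range of Spp1, 1.70 to 5.78, contained that of Trem2, and the range of Clec7a, 0.0403 to 0.103, overlapped those of Cst7 and Itgax, so that these neighbours in the order were not apart. Among the other 8 genes, Lpl and Axl, whose ranges overlap in both genotypes, changed places and the rest kept their order.

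The label of a microglial programme was set beside 18 markers of homeostatic microglia, such as Cx3cr1, the fractalkine receptor. Of the 18, 8 had a fold change below 0 and 10 above, 0 passed the threshold in edgeR or in any alternative, 0 had an unadjusted p under 0.05 in edgeR, and the median log2 fold change was 0.02. Cx3cr1 had a log2 fold change of 0.04 (SE 0.10). The summed level of the 18 was 527, 541, 533 and 706 CPM in control libraries and 655, 552, 518 and 547 CPM in SAP97-cKO libraries. Control replicate 4 and SAP97-cKO replicate 1 were the highest of their genotypes, as for Trem2. The means of 577 ± 86.6 and 568 ± 60.0 CPM (SD, n = 4 each) differed by -0.02 on the log2 scale (exact two-sided permutation test, p = 0.83, where 0.0286 is the smallest p that 4 against 4 allow).

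Within each genotype Trem2 and Tyrobp were highest in the library with the highest sum, and Spp1 was not. Clec7a was highest there in control. In SAP97-cKO it was tied, with 10 reads each in replicate 1, of the highest sum, and replicate 3, of the lowest (518 CPM). Per 1000 counts of the homeostatic markers, Trem2 stood between 19.3 and 22.6 in all 8 libraries, with a coefficient of variation of 4.94% against 15.3% for its normalized counts. Tyrobp stood between 19.9 and 24.7, Axl between 84.8 and 106, and Apoe between 2507 and 3058. The coefficient of variation was also lower on this scale for Tyrobp, Axl, Apoe, Itgax and Clec7a. It was higher for Lpl, at 35.3% against 29.6%, for Gpnmb, at 21.2% against 17.8%, and for Spp1 and Cst7. Lpl ranged from 99.1 to 330 per 1000 and Gpnmb from 6.35 to 12.7. Clec7a was 1.17, 1.72, 1.61 and 1.43 per 1000 in control libraries and 0.415, 0.193, 0.523 and 0.405 in SAP97-cKO libraries, and its mean was 25.9% of control. Spp1 was 34.7, 45.8, 56.4 and 29.1 per 1000 in control libraries and 7.43, 17.2, 14.4 and 5.12 in SAP97-cKO libraries, 26.6% of control. Since the sum differed little between genotypes, these shares carry the same difference for which both genes were chosen. Control replicate 4, which had the most homeostatic counts, was the highest of all 8 libraries for 5 of the 10 genes and the lowest for Lpl.

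**Figure D3:**
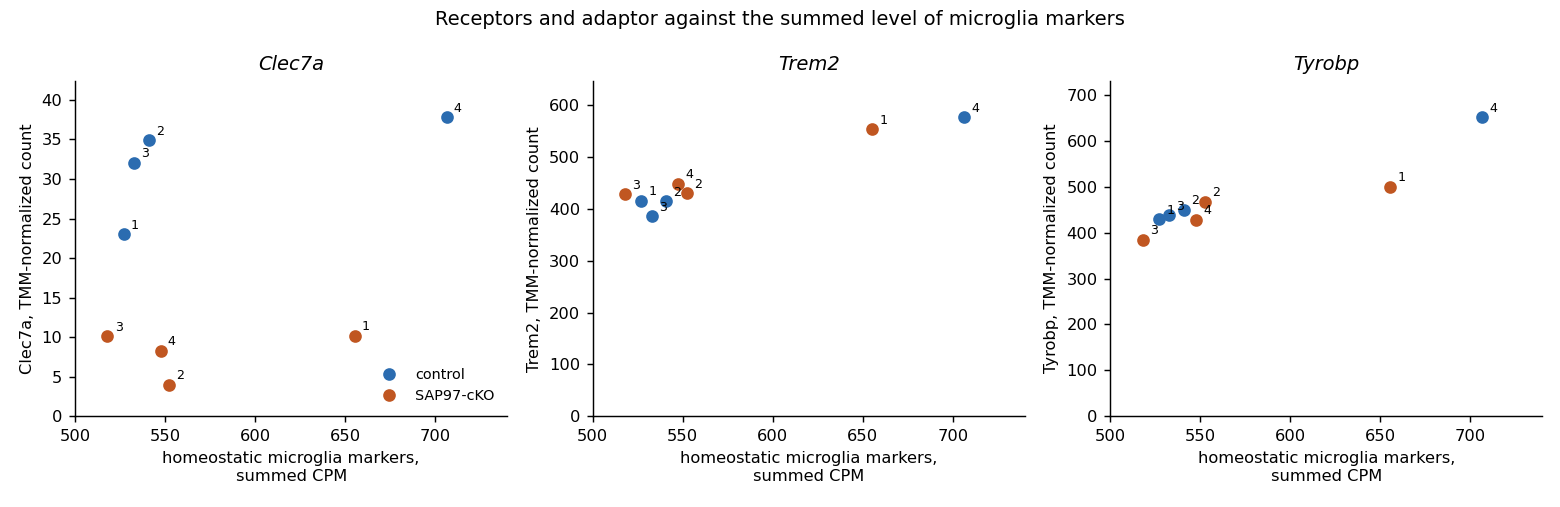
TMM-normalized counts of Clec7a, Trem2 and Tyrobp (vertical axes) against the summed CPM of 18 homeostatic microglia markers (horizontal axis, from 500) in 8 libraries. Points are mice, numbered by replicate. In each genotype Trem2 and Tyrobp are highest in the library with the highest sum. Clec7a is so in control, and in SAP97-cKO its replicates 1 and 3 are tied at 10 reads each. Clec7a was chosen for its genotype difference.

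The other genes of the disease-associated state were read from a list of 28, of which 25 were tested. In 21 of the 25 the fold change was below 0, as it was in 52.8% of all genes, and the median log2 fold change was -0.25. None passed the threshold, and 8 were lower at an unadjusted p under 0.05, which 7.01% of all genes were. These were Cd74, which chaperones MHC class II molecules, H2-D1 and B2m of MHC class I, the cathepsins Ctsl and Ctsz, the tetraspanins Cd9 and Cd63, and Lgals3, which encodes galectin-3. Cd74 had the lowest log2 fold change of them, -1.16 (SE 0.37, edgeR adjusted p = 0.347), and H2-D1 had -0.46 (SE 0.14, edgeR adjusted p = 0.341). These 8 were picked out with their values known. The genes of the list with the most counts had values close to 0, with log2 fold changes of -0.16 (SE 0.11) for Fth1, a ferritin subunit, and -0.06 (SE 0.07) for Ctsb, another cathepsin. With the level of meningeal fibroblast markers in the model, the median was -0.04, and 0 of all genes passed the threshold. That level does not overlap between genotypes, so its share and that of genotype cannot be told apart. The median was -0.23 with the choroid plexus level and -0.25 with the homeostatic microglia level. The list's count past the threshold was 3 in DESeq2, where 6.36% of all genes passed. It was 9 without control replicate 1, where 10.2% of all genes passed, and 3 without replicate 1 of SAP97-cKO, where 4.32% passed. Reads of H2-D1 may be shared with its near-identical MHC class I neighbours. Many of the 25 genes, Fth1, Cd9, Cd63 and B2m among them, are also expressed by other cell types of the tissue.

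Genes that act with the 10 were then counted by role. Of 12 adaptors, kinases and phosphatases downstream of Trem2, Tyrobp and Clec7a, 11 were tested and 0 passed, even at an unadjusted p under 0.05, with a median log2 fold change of 0.04. Inpp5d, the phosphatase SHIP1, had 0.17 (SE 0.10) and Bcl10, which relays signals of Dectin-1, had -0.10 (SE 0.10). Of 8 receptor genes for osteopontin, all tested, 0 passed the threshold, and the median was 0.02. At an unadjusted p under 0.05, 2 of the 8 were lower, beside 7.01% of all genes, and 0 were higher. These were Itgb1 and Itgb5, the latter at -0.22 (SE 0.07). The most abundant of the 8 were the integrin subunits Itgb1, at -0.27 (SE 0.10, edgeR adjusted p = 0.371), and Itgav, at 0.04 (SE 0.12).

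Among the 4 ligands and receptors related to Axl, 0 passed, 3 had a fold change below 0, and the median log2 fold change was -0.14. The ligand gene Gas6 had a log2 fold change of -0.27 (SE 0.13, edgeR adjusted p = 0.438) and the receptor gene Tyro3 of 0.17 (SE 0.15). Of 12 genes that handle the lipoproteins of Apoe and Lpl, 10 were tested and 0 passed, with a median of 0.05. At an unadjusted p under 0.05, 2 of the 10 were lower, beside 7.01% of all genes, and 0 were higher. These were Lipa, at -0.26 (SE 0.08), and Apoc1, at -0.74 (SE 0.29). The receptors Sort1 and Lrp1 had log2 fold changes of 0.19 (SE 0.11) and 0.28 (SE 0.16). Of 8 genes for microglial survival and differentiation, 0 passed, 5 had a fold change below 0, and the median was -0.17. At an unadjusted p under 0.05, 1 of the 8 was lower, beside 7.01% of all genes, and 0 were higher. It was Tgfbr2, at -0.33 (SE 0.13). Csf1r, the receptor that microglia need to survive, had 0.05 (SE 0.08), and Il34, one of its ligands, had 0.09 (SE 0.13).

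**Figure D4:**
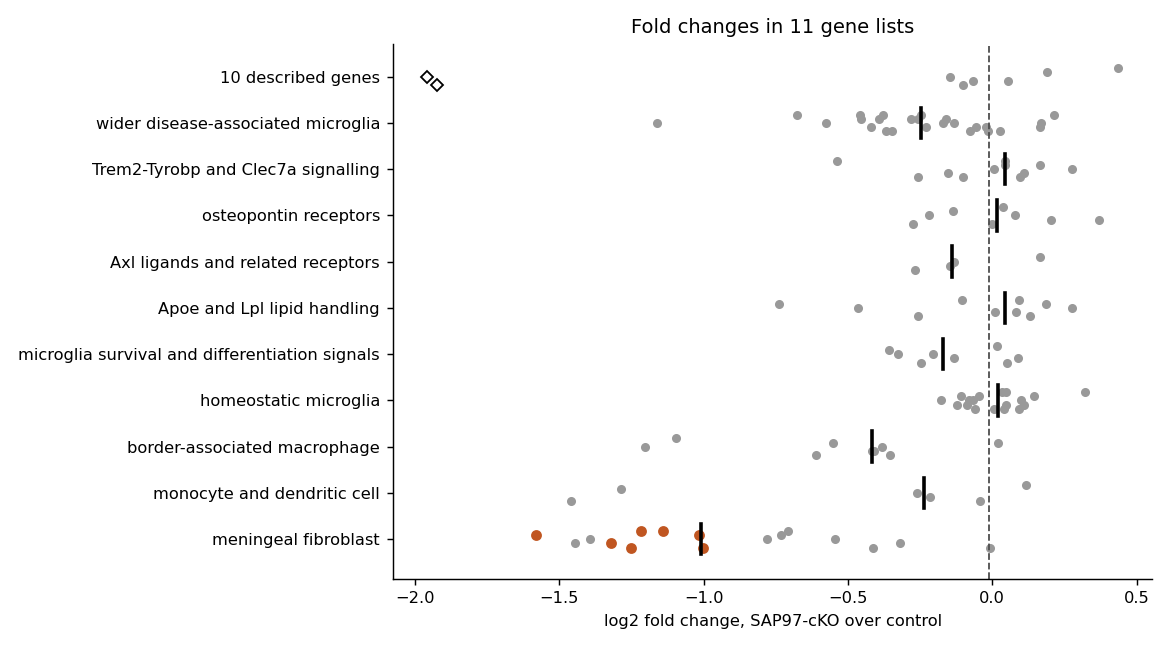
Log2 fold change, SAP97-cKO over control, of each tested gene in 11 lists, 1 row per list. Grey points did not pass the threshold, orange points did, open diamonds are Clec7a and Spp1, black bars are list medians and the dashed line is the median of all genes. Orange points appear in the meningeal fibroblast list, where 7 genes passed. The lists were chosen with earlier results of these data known.

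Among cells at the borders of the hippocampus, the summed meningeal fibroblast markers differed by genotype beside Clec7a and Spp1, while the choroid plexus sums overlapped. The 16 meningeal fibroblast markers were all tested, all had a fold change below 0, and 7 passed the threshold, beside 0.295% of all genes. The 7 were Slc22a6, Slc6a13 and Aldh1a2, and the matrix genes Ogn, Col3a1, Col1a2 and Mgp. All 7 are also among the genes that the paper lists as changed in these mice. The 16 were listed with earlier results of these data known, so the 7 calls and the summed level are not independent of that choice. The log2 fold changes of the 7 lay between -1.58 and -1.0, and the most abundant markers, Igf2 and Dcn, had -0.78 (SE 0.41) and -0.01 (SE 0.42). The summed level of the 16 was 373, 635, 377 and 357 CPM in control libraries and 221, 329, 286 and 196 in SAP97-cKO libraries, with no overlap. None of the 16 was at 0. The 12 choroid plexus markers all had a fold change below 0 and none passed, and their sum ranged from 178 to 6876 CPM in control and from 101 to 2371 in SAP97-cKO libraries. The most abundant, Ttr, which encodes transthyretin, and Kl, which encodes klotho, had log2 fold changes of -1.48 (SE 1.07) and -1.03 (SE 0.57).

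Of 10 border-associated macrophage markers, 9 were tested, 8 had a fold change below 0 and 0 passed. Their summed level was 25.9 to 35.6 CPM in control and 19.2 to 28.5 in SAP97-cKO libraries. Over all genes, 52.8% had a fold change below 0, and in 3.47% SAP97-cKO was the lower without overlap. The median log2 fold change of the 9 markers was -0.42. At an unadjusted p under 0.05, 3 of the 9 were lower, beside 7.01% of all genes. These were Clec10a, a C-type lectin, at -1.20 (SE 0.40) with no overlap between genotypes, Lyve1, a hyaluronan receptor, at -1.09 (SE 0.31), and Mrc1, the mannose receptor, at -0.61 (SE 0.23). Stab1, the most abundant and so the largest part of the sum, was the one marker above 0, at 0.02 (SE 0.11). Clec10a and Lyve1 were picked out with their values known, as was F13a1, at -0.55 (SE 0.25), which did not overlap between genotypes either. Of 10 monocyte and dendritic cell markers, 6 were tested, 5 had a fold change below 0 and 0 passed, and the sum was 17.3 to 22.5 CPM in control and 13.9 to 18.4 in SAP97-cKO libraries. The median log2 fold change was -0.24, and 2 of the 6 were lower at an unadjusted p under 0.05, beside the same 7.01% of all genes. These were Ccr2, a chemokine receptor of monocytes, at -1.46 (SE 0.44) with no overlap between genotypes, and H2-Ab1 of MHC class II, at -1.29 (SE 0.43), both picked out with their values known. The most abundant, Zbtb46 and Flt3, which outweigh the others in the sum, had -0.04 (SE 0.21) and -0.26 (SE 0.16). Dendritic cells and macrophages of the meninges can also express Clec7a and Spp1, and the part of these cells in either difference was not tested.

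Lists of 10 markers each for the other main cells of the tissue were all tested, and none of their genes passed the threshold. At an unadjusted p under 0.05, 7 oligodendrocyte and 1 endothelial markers were lower, beside 7.01% of all genes. At that level 2 astrocyte and 4 neuron markers were higher, beside 4.73% of all genes. The median log2 fold change was -0.51 for oligodendrocytes, with 10 of 10 genes below 0, -0.18 for endothelial cells, 0.03 for astrocytes and 0.14 for neurons. Among the most abundant were the myelin gene Mbp, at -0.47 (SE 0.22), and the endothelial genes Flt1, at -0.0014 (SE 0.17), and Itm2a, at -0.38 (SE 0.12). Those of astrocytes were Slc1a2, at 0.11 (SE 0.09), and Aldoc, at -0.13 (SE 0.13), and those of neurons Camk2a, at 0.28 (SE 0.10), and Snap25, at -0.03 (SE 0.08). The part of these cells in the values of Lpl and Apoe was not tested.

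Within the SAP97-cKO genotype Spp1 took the same order as the fibroblast sum and the choroid plexus sum, from replicate 2 at the top through 3 and 1 to 4. In control libraries it did not, since Spp1 was highest in replicate 3 and both sums in replicate 2. With the mean log2 level of the fibroblast markers added to the model, the log2 fold change was -1.0 (SE 0.45) for Spp1 and -2.15 (SE 0.69) for Clec7a. With the choroid plexus level in its place, it was -1.71 (SE 0.22) for Spp1 and -2.02 (SE 0.37) for Clec7a. With the level of homeostatic microglia it was -1.93 (SE 0.33) and -1.95 (SE 0.33). As the summed fibroblast level does not overlap between genotypes, its share of a difference and that of genotype cannot be told apart in these 8 libraries.

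**Figure D5:**
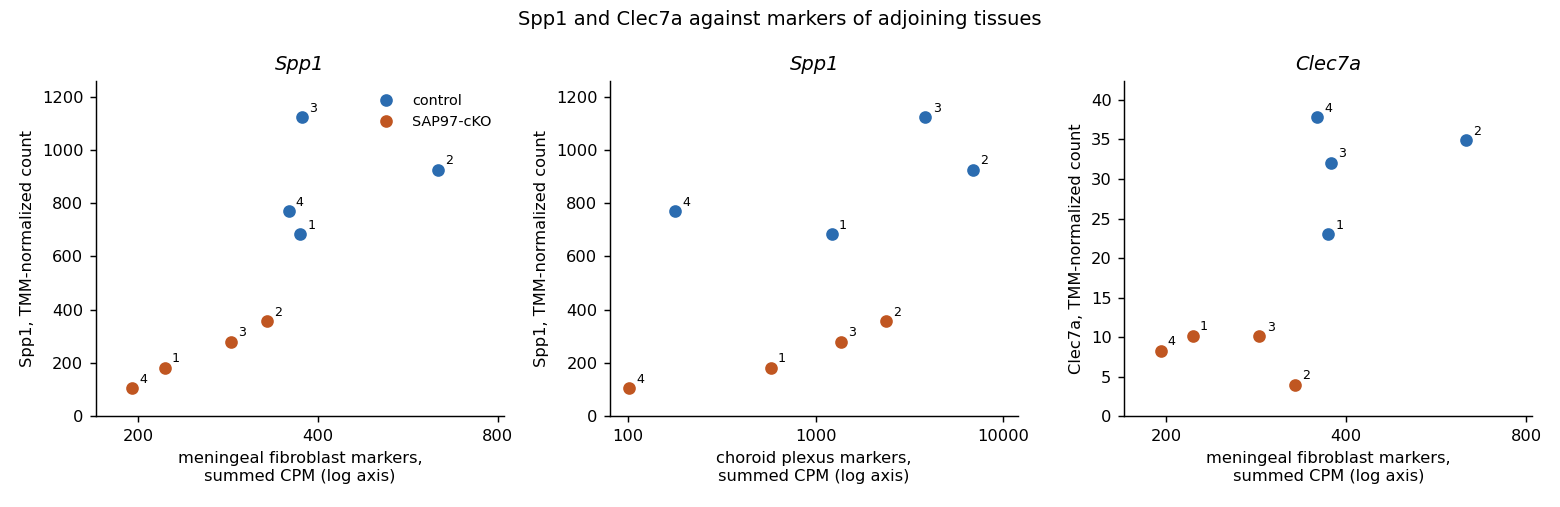
TMM-normalized counts of Spp1 and Clec7a (vertical axes) against the summed CPM of 16 meningeal fibroblast or 12 choroid plexus markers (horizontal log axes) in 8 libraries, numbered by replicate. Spp1 of the 4 SAP97-cKO libraries takes the order of both sums, and Clec7a does not.

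After the genotype means were subtracted, the tested genes most like Clec7a over the 8 libraries were Gm11872, 4930506C21Rik and Gstm7, with Pearson's r of 0.96, 0.96 and 0.95 of log2 CPM. Those most like Spp1 were Mapk13, Uba7 and 6330409D20Rik, with r of 0.97, 0.97 and 0.96. None of these 6 passed the threshold between genotypes. They are the extremes of a search through all tested genes over 8 libraries that share their depth, and are given as a description.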

How the data were processed

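Hippocampal RNA of 8 male mice was sequenced, and the 4 control and 4 SAP97-cKO samples were grouped by their labels. For alignment the authors used STAR 2.5.3a and the mm10 genome (GRCm38.p5). They removed ribosomal and mitochondrial reads, resampled each library to a common depth with PORT, and deposited a whole-number count per gene and library. Totals were even (37388177 to 37426572 counts). The sources used here do not state whether counting used strand. The log2 fold changes, p-values and q-values of the authors' own comparison were also deposited and were not used.

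Genes were filtered with filterByExpr of edgeR 4.0.16 (minimum count 10, minimum total 15), scaled by TMM and compared in R 4.3.3 by the quasi-likelihood test, adjusted by the Benjamini-Hochberg method over 16251 genes, with a threshold of 0.25. The test was checked on simulated counts. The summed marker level was compared with an exact permutation test over 70 assignments. Alternatives were limma-voom (limma 3.58.1), DESeq2 1.42.0, other scalings and filters, covariates, a replicate block, and leaving out each library. Coordinates are from GENCODE M21 and promoters from RefSeq (GRCm38.p6). The members, lists and tests were chosen with earlier results of these data known. Named genes were the 10 members, Dlg1, and in each list the genes past the threshold and the 2 with the most counts, of which 2 genes are not reported here. For Clec7a and for Spp1 the 3 genes most correlated with them were named too. Any other gene was picked out with its values known.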

Additional observations from a re-analysis of the deposited data

Results flagged for a closer look

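In a group of 4 libraries, a highest or lowest value was marked when its gap to the nearest other library, divided by the range of the group, exceeded Dixon's critical value at the 95% level. Over the 10 genes and both genotypes, 20 groups were examined and 3 were marked, where chance marks about 1 in 20 groups. Trem2 in control replicate 4 had 577 normalized counts, against 385 to 416 in the other control libraries. Trem2 in SAP97-cKO replicate 1 had 554 normalized counts, against 428 to 448 in the other libraries of its genotype. Tyrobp in control replicate 4 had 652 normalized counts, against 429 to 450.3 in the others. These 2 libraries also held the highest summed level of homeostatic microglia markers in their genotypes, 706 and 655 CPM, and the part of that level in the 3 values was not tested. Without control replicate 4, the log2 fold change was 0.20 for Trem2 and 0.02 for Tyrobp.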

How the results depend on the processing

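None of the 6 tested genes other than Clec7a and Spp1 passed in any setting, and their lowest adjusted p was 0.272, for Lpl with homeostatic microglia as covariate in edgeR. Lpl had a log2 fold change of -0.11 with the meningeal fibroblast covariate and of 0.28 to 0.63 when libraries were left out. Without control replicate 4 the values of Tyrobp, Apoe and Axl were 0.02, 0.03 and 0.0046 instead of below 0, and Trem2 was below 0 in 4 of 19 settings. Clec7a ranged from -2.15 to -1.73 in 18 settings and Spp1 from -2.21 to -1.0 in 19, where the value nearest 0 was that with the fibroblast covariate. In the wider disease-associated list, 0 genes passed in the edgeR analysis described, 3 in DESeq2 (Cd74, Cd9, H2-D1, beside 6.36% of all genes) and 5 with the homeostatic microglia covariate (B2m, Cd9, Ctsl, Ctsz, H2-D1, beside 7.24% of all genes), all lower in SAP97-cKO. When libraries were left out this count was 0 to 9, namely 9 without control replicate 1 (10.2% of all genes called) and 3 without replicate 1 of SAP97-cKO (4.32% called). With the fibroblast covariate the median log2 fold change of the list was -0.04, with 16 of 25 below 0. With the choroid plexus covariate it was -0.23, with 20 of 25 below 0. The cause was not tested. The summed homeostatic level differed by -0.10 to 0.09 on the log2 scale when libraries were left out.

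With a replicate block, 1 gene of the wider list passed (Cd74), beside 1.58% of all genes. The summed homeostatic level then differed by -0.02, and 0 of the other tested members and of the homeostatic list passed. Libraries sharing a replicate number deviated together with correlations of -0.062, 0.201, 0.0898 and 0.259, which were not positive in every pair, and no label ties the numbers, so the mice were not treated as paired. As hints from the data that the numbers may be shared, 5 of 8 libraries were closest to their own number, and the fibroblast and choroid plexus sums took the same replicate order in both genotypes.

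Over all genes, 48 passed in edgeR, 1033 in DESeq2, 95 without scaling, 104 without a filter, 256 (1.58%) with the block, 1177 with the homeostatic covariate, 16 with the choroid plexus covariate and 0 with the fibroblast covariate, where 550 had an unadjusted p under 0.05. At an adjusted p under 0.05 edgeR called 0, while 1907 had an unadjusted p under 0.05. When libraries were left out the count was 0 to 1675, and it was 0 without control replicate 2, SAP97-cKO replicate 3 or SAP97-cKO replicate 4, where 1404, 1259 and 1167 genes had an unadjusted p under 0.05. Depth limits Itgax, Cst7 and Clec7a most.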
